A study of Saccharomyces cerevisiae with 24 samples.

Results

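Expression in the med20Δ strain was set against that of its wild-type parent while both strains were exposed to tunicamycin. The comparison comprises 2 of the 24 arrays of the series, which are those whose labels name both strains and tunicamycin, and each log ratio was turned so that med20Δ is the numerator. The wild-type is BY4741 (Mata ura3Δ0 leu2Δ0 his3Δ1 met15Δ0), and the isogenic med20Δ strain carries a kanamycin resistance marker in place of MED20. Both strains therefore carried the same 4 marker deletions. Cultures in YPD at 30°C were at an A600 of about 0.2 when tunicamycin was given at 2.5 µg/ml for 90 min, from a stock in methanol. Poly(A)+ RNA of each strain was hybridized to 2 spotted arrays of yeast ORFs with the dyes reversed, med20Δ in Cy3 on replicate 1 and in Cy5 on replicate 2. Both channels held treated cells, so a ratio compares the strains under tunicamycin, and how far either strain responded to the drug is not measured by it.

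Med20, also called Srb2, is a non-essential subunit in the head module of Mediator, the complex that links DNA-bound regulators to RNA polymerase II. Tunicamycin inhibits Alg7, the first enzyme of N-glycan assembly, so that unglycosylated proteins misfold in the endoplasmic reticulum (ER). Yeast answers through Ire1, an ER membrane kinase and nuclease that splices HAC1 mRNA, and the Hac1 factor then activates genes of ER chaperones and oxidoreductases. Secretory stress is also known to repress transcription of ribosomal protein (RP) genes in wild-type yeast. The comparison asks whether the expression difference between the strains under this stress lies in the RP genes, and it allows the ER stress genes to be examined beside them.

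The labels do not say whether the 2 arrays hold separate cultures, so they count together as 1 replicate and allow no test between replicates. A gene is called higher or lower at a 2-fold mean ratio (a log2 ratio of 1), and each value is given as the mean log2 ratio of the pair with replicate 1 and then replicate 2 in parentheses. Of 6307 ORFs on the array, 5653 gave a ratio on both arrays. The log2 ratios of the 2 arrays correlated with r = 0.724 across genes, which are not independent replicates, and the ratio of a single array varied with an SD of 0.21, computed from the differences within the pair. Replicate 1 was the brighter array, with median background-subtracted ORF intensities of 983 and 1050 in its channels against 364.5 and 437.5 on replicate 2. In every channel the background set by the unnamed spots was exceeded by at least 95.1% of ORFs. Each array was normalized to its own genes, so a change shared by most mRNAs would not be seen. In RNA of a whole culture, fewer cells with a transcript and fewer transcripts per cell cannot be told apart.

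The deleted gene was examined first. MED20 (YHR041C) had a log2 ratio of -0.55 (-0.54, -0.56), lower in med20Δ on both arrays. Its background-subtracted intensity in the med20Δ channel was 423 and 148, against 686 and 324.5 for wild-type, and in the 6 other conditions of the same strains its mean ratio lay between -0.89 and -0.26. The spot thus kept signal in the strain that lacks the gene, and it gives the direction of the ratio and not its full size. The neighbors of MED20 in the gene table had ratios of -0.30 (0.01, -0.60) for BCD1 and 0.37 (0.60, 0.14) for NCP1, both within 2-fold. Of the parental marker genes that both strains lack, MET17 (MET15) gave some of the dimmest spots on the arrays, but URA3 was among the brightest, with intensities of 5958.5 to 11221 in the 4 channels and a ratio of -0.52 (-0.32, -0.72). What the spots of deleted genes bound was not tested. The a-factor gene MFA1 was bright in every channel, at 2949.5 to 11923.5 in these strains of mating type a, whereas the alpha-factor gene MF(ALPHA)1 lay between 63 and 201.5. The other mating-type markers were less distinct, since the alpha-specific STE3 and SAG1 reached 2402 and 685.5 and the a-specific ASG7 lay between 85 and 212.5.

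With tunicamycin, the RP genes dominated the genes that were higher in med20Δ than in wild-type. Of the 5653 genes, 105 were higher by 2-fold or more (1.86%) and 42 were lower (0.743%), together 2.6% of the genes. RP genes made up 73 of the 105. Those that were lower included genes of small heat shock proteins and of stress metabolism, led by HSP26 and HSP12. Genes of ER protein folding, in contrast, were spread around 0, and none of them reached 2-fold. On both arrays, 1911 genes (33.8%) were above 0 and 1931 (34.2%) were below 0, and the middle 95% of the mean ratios ran from -0.63 to 0.87. Both channels of the 147 called genes were above background on both arrays. The 2 arrays contributed unequally to the lower genes. Replicate 1 alone gave 87 and replicate 2 alone gave 21, while 17 were lower by 2-fold on both. The higher genes were steadier, with 135 on replicate 1, 110 on replicate 2 and 83 on both.

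**Figure D1:**
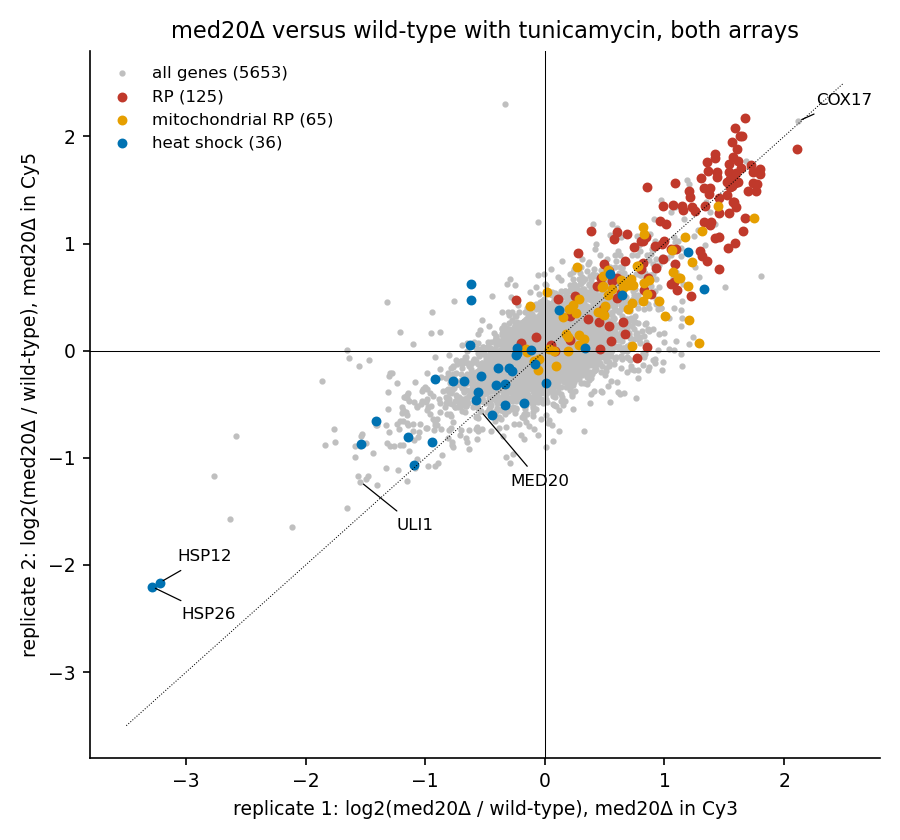
Log2 ratio of med20Δ to wild-type with tunicamycin on replicate 1 (horizontal axis) and replicate 2 (vertical axis), 1 point per gene, with the RP, mitochondrial RP and heat shock genes colored and the dotted line marking equal ratios. The RP genes lie at the upper right along the dotted line, and HSP26 and HSP12 lie farthest to the lower left, where replicate 1 gave the larger ratios (-3.29 and -3.22 against -2.20 and -2.17).

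The largest ratio was that of COX17 (YLL009C), which encodes a copper chaperone for the assembly of cytochrome c oxidase. Its background-subtracted intensity was 3219 in med20Δ and 744.5 in wild-type on replicate 1, and 1680.5 and 384 on replicate 2. The log2 ratio was 2.13 (2.12, 2.14), a 4.37-fold difference with almost no spread between the arrays. COX17 was also higher in the 6 other conditions, with a mean ratio between 1.01 and 2.36. Apart from MAM33, which encodes an acidic protein of the mitochondrial matrix and had a ratio of 1.73 (1.68, 1.77), the other 10 of the 12 largest ratios were RP genes.

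RPL21A was the RP gene with the largest ratio, at 2.00 (2.11, 1.89). Its intensity was 16291 in med20Δ and 4806.5 in wild-type on replicate 1, and 4044 and 1213 on replicate 2, so the med20Δ channel was the brighter with either dye. The other RP genes among the 12 were RPL20A at 1.92 (1.67, 2.17), RPS12 at 1.83 (1.59, 2.08), RPP0, which encodes the stalk protein that anchors the other P proteins, at 1.83 (1.65, 2.00), and RPL12B, a partner of that stalk, at 1.82 (1.63, 2.00). Ratios of RPS8A, RPS17B, RPS31 (a fusion of ubiquitin with a small-subunit protein), RPL20B and RPS10A lay between 1.72 and 1.75. Every one of these 10 genes was above 1.5 on each array.

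Over the whole family, 125 of the 137 RP genes were measured, and the other 12 had an unusable spot on at least 1 array. Their median log2 ratio was 1.22 (1.21, 1.12), a 2.32-fold difference, against 0.00 over all genes. Above 0 on both arrays were 120 of them, the other 5 had opposite signs, and none was below 0 on both. By 2-fold or more, 58.4% of the RP genes were higher, against 0.579% of the 5528 genes outside the family. The ratios ranged from -0.06 to 2.00 with the middle of the distribution (25th to 75th percentile) between 0.76 and 1.54. The small subunit genes had a median of 1.27 (1.18, 1.31), with 30 of 50 higher by 2-fold, and the large subunit genes a median of 1.12 (1.22, 1.04), with 43 of 75. The subunits overlapped throughout, and replicates 1 and 2 did not give them the same order. RPL3 and RPL28, single-copy genes of the large subunit, had ratios of 1.58 (1.59, 1.56) and 1.22 (1.07, 1.36).

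At the low end of the family, 19 RP genes had ratios under 0.5. Their spots ranged from the dimmest to the brightest of the array, and the part of brightness in these ratios was not tested. RPL1A, at 0.03, had intensities between -5 and 5 in the 4 channels, and RPL15B, RPL14A, RPL35A and RPL11A were in the dimmest 13.4% of genes. At the bright end, RPL38 had a ratio of -0.06 with intensities of 13042 and 22200.5 on replicate 1, RPL32 had 0.12 (-0.24, 0.47), and RPL24A and RPL24B, whose spots were brighter than 99% of genes, had 0.30 and 0.33. RPS3, a single-copy gene of the small subunit, had 0.44. The family was thus broadly but not uniformly higher in med20Δ.

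Most yeast RP genes exist as 2 copies with nearly identical coding sequences, and a spotted double-stranded ORF product can bind the transcripts of both. In the 49 pairs with both copies measured, the median difference between copies was 0.29, and 25 pairs differed by less than 0.3. A difference over 1 was found in 4 pairs. RPL1A had 0.03 and RPL1B 1.46, RPL15A had 1.12 and RPL15B 0.04, RPS10A had 1.72 and RPS10B 0.35, and RPS19A had 1.47 and RPS19B 0.36. The lower copy was in the dimmest 24.4% of genes in the first 3 of these pairs. In the fourth it was not, since the RPS19B spot was brighter than 99.5% of genes. How much each copy contributed to the signal of the other cannot be told apart here.

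**Figure D2:**
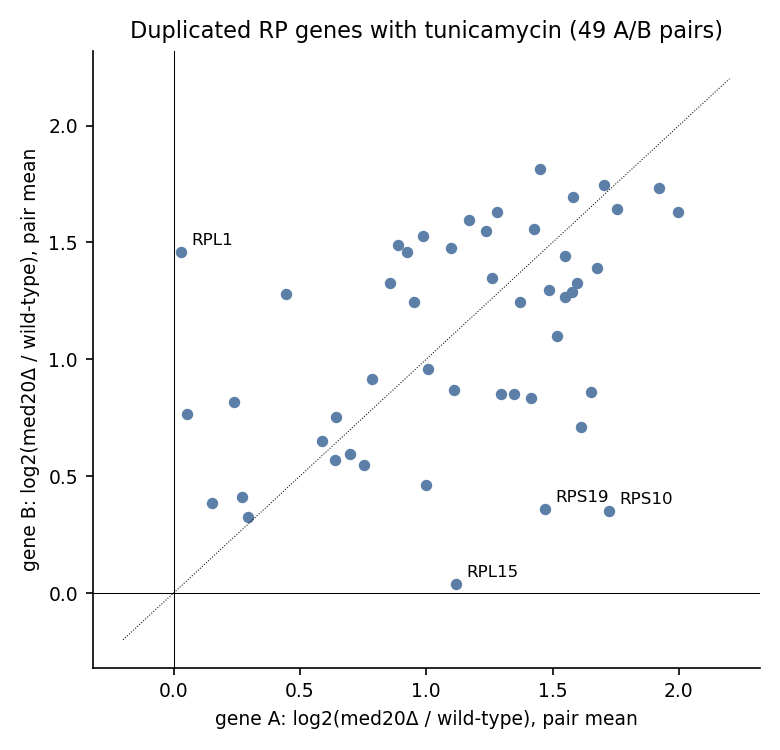
Mean log2 ratio of med20Δ to wild-type with tunicamycin for the A copy (horizontal axis) and the B copy (vertical axis) of 49 duplicated RP genes, 1 point per pair, with the dotted line marking equal ratios. Most pairs lie between 0.5 and 2.00 on both axes, and RPL1, RPL15, RPS10 and RPS19 are the 4 pairs in which the copies differed by more than 1.

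Among genes that act with the ribosome, few passed 2-fold, although the medians were above 0. Among 7 genes of ribosome-associated chaperones, which bind nascent chains at the tunnel exit, the median was 0.70 (0.72, 0.69), 6 were above 0 on both arrays and 1 was higher by 2-fold. The Hsp70 genes SSB2 and SSB1 had 1.05 (1.14, 0.96) and 0.99 (1.29, 0.69), and their J-protein partner ZUO1 had 0.89 (0.79, 0.99). The 35 translation factor genes had a median of 0.33 (0.35, 0.40). Of these, 24 were above 0 on both arrays and 3 below. STM1 alone, which encodes a protein that clamps idle ribosomes, was higher by 2-fold at 1.37 (1.35, 1.39), while the initiation factor genes TIF11 and TIF1 had 0.97 (1.06, 0.89) and 0.92 (0.90, 0.95). The 22 aminoacyl-tRNA synthetase genes had a median of 0.29 (0.37, 0.28), with 18 above 0 on both arrays and none past 2-fold. For comparison with these 3 lists, 33.8% of all genes were above 0 on both arrays and 34.2% below. By 2-fold, 1.86% of all genes were higher. Outside these lists, ASC1, whose product sits on the small subunit, had 1.33 (1.38, 1.29), although its spot can also bind the transcript of SNR24, which lies within the gene. PRS3, which encodes a phosphoribosyl pyrophosphate synthetase, had 1.07 (1.08, 1.06).

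Ribosome biogenesis (Ribi) genes, which encode the rRNA processing and assembly factors rather than the ribosome's own proteins, stayed much closer to 0. The median of the 142 measured was 0.15 (0.20, 0.08), with 81 above 0 and 19 below 0 on both arrays. Those above 0 were 57.0% of the list, against 33.8% of all genes, and 34.2% of all genes were below 0. Only SNU13, for a protein of the U3 and U4 small RNA particles, and REA1, for the large ATPase of pre-60S maturation, passed 2-fold, at 1.19 (0.97, 1.40) and 1.01 (1.14, 0.88). The lowest were ESF1 at -0.47 (-0.46, -0.49), HAS1 at -0.47 (-0.26, -0.69) and HCA4 at -0.41 (-0.37, -0.45). The share of Ribi genes higher by 2-fold, 1.41%, rested on SNU13 and REA1 alone. It was 1.86% over all genes and 0.579% over the genes outside the RP family.

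The mitochondrial RP genes, which encode the ribosome that translates mitochondrial mRNAs, were examined apart. Of 72 genes, 65 were measured, with a median of 0.59 (0.63, 0.52), and 57 were above 0 on both arrays against 4 below. Over all genes, 33.8% were above 0 on both arrays and 34.2% below. By 2-fold, 6 of the 65 were higher (9.23%, against 1.86% of all genes) and none lower. MRPL20 had 1.49 (1.75, 1.24), MRPS9 1.40 (1.44, 1.35) and MRPL3 1.22 (1.31, 1.12), while MRPL49, MRPL16 and MRPL44 were lowest at -0.12, -0.10 and -0.08. Among the called genes outside both RP families, some that encode mitochondrial proteins were picked out after their values were seen. These were TUF1, the mitochondrial elongation factor Tu, at 1.31 (1.42, 1.19), the import pore genes TOM6 and TOM7 at 1.27 (1.46, 1.08) and 1.17 (1.05, 1.29), and HSP10, the mitochondrial co-chaperonin, at 1.06 (1.20, 0.92). Of the cytochrome oxidase assembly genes other than COX17, MSS51 and SCO1 were the next highest, at 0.90 (0.89, 0.90) and 0.77 (0.88, 0.66), and COA1 was lowest at -0.77 (-1.30, -0.24). The median of that list, 0.32 over 19 genes, was 0.13 on replicate 2 alone. The oxidative phosphorylation genes had a median of 0.16 over 35 genes, with CYC1, for cytochrome c, highest at 0.97 (0.92, 1.02).

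**Figure D3:**
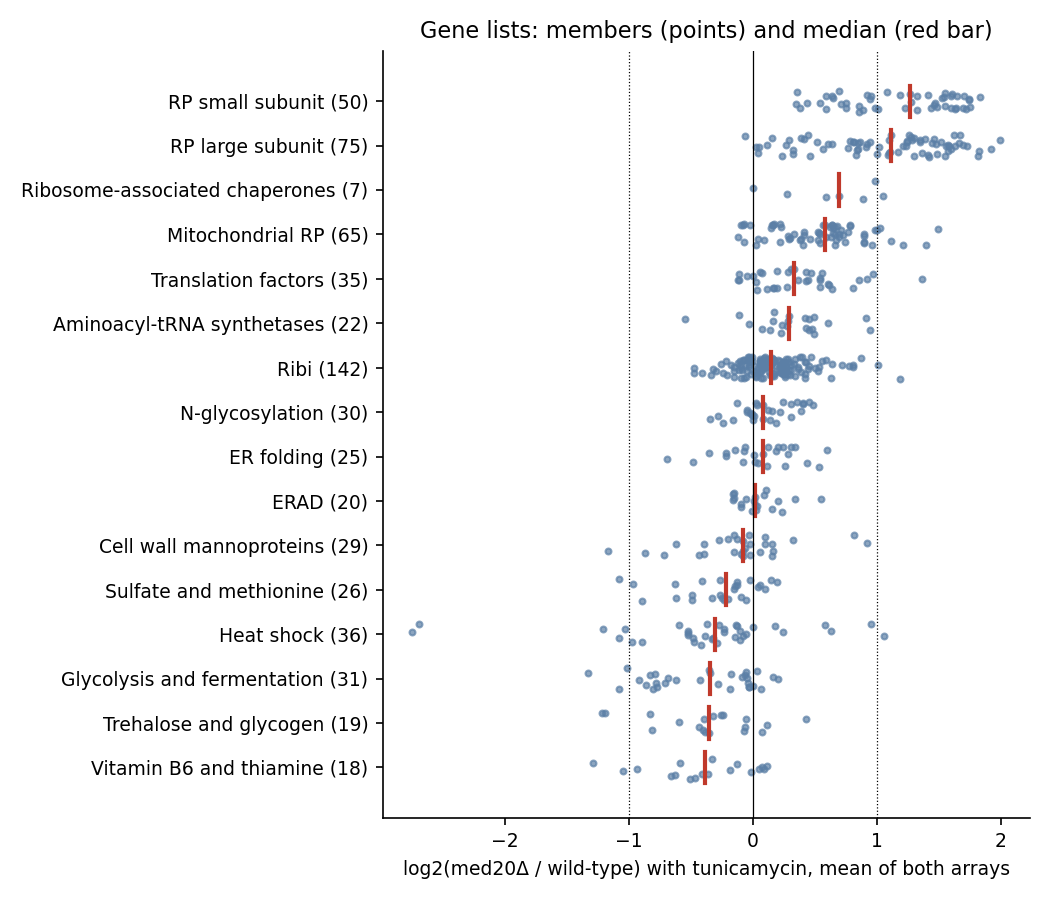
Mean log2 ratio of med20Δ to wild-type with tunicamycin for the members of 16 gene lists (points, number measured in parentheses) with the median of each list (red bar) and dotted lines at 2-fold. The cytoplasmic RP genes lie mainly to the right of 0 with medians of 1.27 and 1.12, the ER lists center near 0, and the heat shock list has 2 members far to the left.

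The genes of the unfolded protein response were of interest because tunicamycin acts on the ER. All 25 genes of the ER folding list were measured, and their median was 0.08 (0.08, 0.06). Above 0 on both arrays were 10 of them and below 0 were 7, where 33.8% and 34.2% of all genes were, and none passed 2-fold. The lowest of the 25 was KAR2, which encodes the ER Hsp70 BiP. Its intensity was 11731.5 in med20Δ and 36915 in wild-type on replicate 1, and 13927 and 19937 on replicate 2, and its ratio was -0.69 (-1.02, -0.35). The arrays thus differed for KAR2 by more than 0.565, the 95th percentile of the difference between arrays over all genes. ERO1, the oxidase that drives disulfide formation, was the next lowest, at -0.48 (-0.54, -0.41), and ORM2, a regulator of sphingolipid synthesis, had -0.35 (-0.55, -0.16). At the other end were CPR5, an ER cyclophilin, at 0.60 (0.61, 0.58), ROT2, a glucosidase subunit, at 0.54 (1.00, 0.08), and EUG1, a relative of the disulfide isomerase PDI1, at 0.44 (0.58, 0.30). PDI1 itself had -0.14 (-0.07, -0.21) and the Hsp70 gene LHS1 had 0.08 (0.08, 0.09).

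Of the signaling components, IRE1 had a ratio of 0.13 (0.10, 0.17) and HAC1 of -0.47 (-0.74, -0.21), so the HAC1 spot was dimmer in med20Δ on both arrays but by less than 2-fold. The spot does not tell spliced from unspliced HAC1 mRNA. The target of the drug, ALG7, had -0.01 (-0.16, 0.15). The other ER lists also centered near 0 with no member past 2-fold. N-glycosylation genes had a median of 0.09 over 30 genes, and the oligosaccharyltransferase subunit gene OST1 had 0.46 (0.42, 0.49). The 20 genes of ER-associated degradation had a median of 0.02, from -0.16 to 0.55, and DER1 had -0.15 (-0.08, -0.21). Medians were 0.07 for 27 genes of O-mannosylation and GPI anchors, -0.01 for 17 of ER translocation, where SEC61, the translocation channel, had 0.57 (0.56, 0.58), and 0.09 for 38 of ER to Golgi transport. Of 13 calcineurin target genes, a pathway that ER stress is known to engage, none was above 0 on both arrays and 5 were below. Over all genes, 33.8% were above 0 on both arrays and 34.2% below, and the list median was -0.08 (-0.17, -0.06). PMC1, a vacuolar calcium pump, was lowest at -0.55 (-0.59, -0.51).

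Known responders to ER stress outside these lists were among the lower genes. ULI1, a gene named for its induction by the unfolded protein response, had intensities of 3017 in med20Δ and 10607 in wild-type on replicate 1, and 657.5 and 1936.5 on replicate 2. Its ratio was -1.38 (-1.54, -1.22), past 2-fold on each array. INO1, which encodes inositol 3-phosphate synthase and whose transcription depends on inositol and on the ER stress pathway, had -1.03 (-1.18, -0.88), past 2-fold on the mean but only on replicate 1 singly. ULI1, INO1, KAR2 and ERO1 were thus below 0 on both arrays, the first 2 by 2-fold on the mean, while CPR5 and EUG1 of the ER folding list were above 0 on both. KAR2 and ERO1 were the lowest members of that list, whose median was 0.08, with 10 of 25 above 0 on both arrays and 7 below.

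The lowest ratios were those of HSP26 and HSP12, which encode small heat shock proteins and are standard markers of the general stress response. The HSP26 spot measured 1724.5 in med20Δ against 20999.5 in wild-type on replicate 1, and 1458 against 8147.5 on replicate 2. Its log2 ratio was -2.74 (-3.29, -2.20). For HSP12 the ratio was -2.69 (-3.22, -2.17). The next were RTC3 at -2.10 (-2.64, -1.57), TMA10 at -1.97 (-2.77, -1.17) and PBI2, an inhibitor of the vacuolar proteinase B, at -1.88 (-2.11, -1.64). The other 7 of the 12 lowest ratios past 2-fold on both arrays lay between -1.56 and -1.21. They were CPP3, ULI1, ROQ1 (for a stress-induced regulator of the ubiquitin ligase Ubr1), SOR2, GLK1 (glucokinase), ATX1 (a cytosolic copper chaperone) and PGM2 (phosphoglucomutase). Replicate 1 gave the lower value for all 12.

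The heat shock list as a whole had a median of -0.30 (-0.40, -0.25) over 36 genes, with 24 below 0 and 6 above 0 on both arrays. Over all genes, 34.2% were below 0 and 33.8% above 0 on both arrays, and 0.743% were lower by 2-fold. HSP26, HSP12, SSA1, SSE2 and SSA2 were lower by 2-fold, SSA1 at -1.20 (-1.53, -0.87). Of the 6 above 0 on both arrays, only HSP10, at 1.06, passed 2-fold. HSP10, SSC1 at 0.95 (1.33, 0.58), MGE1 at 0.63 (0.55, 0.72) and HSP60 at 0.58 (0.64, 0.52) encode chaperones of the mitochondrial matrix, and the cytosolic chaperone genes SBA1 and SSA3 had 0.24 (0.11, 0.38) and 0.18 (0.34, 0.02). A list of 37 genes that yeast induces in many stresses, written after the values had been seen, had 34 measured members, with 32 below 0 and none above 0 on both arrays. Its median was -0.88 (-1.07, -0.68), and 12 members were lower by 2-fold. These included DDR48 at -1.69 (-2.58, -0.80), DDR2 at -1.36 (-1.84, -0.88) and TSL1, a subunit of the trehalose synthase complex, at -1.20 (-1.44, -0.95).

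Carbohydrate gene lists also had medians below 0. Trehalose and glycogen genes had a median of -0.35 (-0.38, -0.27), with 13 of 19 below 0 on both arrays, where 34.2% of all genes were. PGM2, at -1.21 (-1.33, -1.10), and TSL1 were lower by 2-fold, as were 0.743% of all genes. Glycolysis and fermentation genes had a median of -0.34 over 31 genes, but this rested on replicate 1, where it was -0.45, since it was -0.07 on replicate 2. GLK1 was past 2-fold on both arrays, at -1.33 (-1.40, -1.25). For the highly expressed PGK1 the arrays gave -1.86 and -0.29, and for ENO1 -1.66 and 0.00, so the ratios of these genes were not settled by the pair. Hexose transport genes had a median of -0.29 (-0.36, -0.16) over 20 genes, with HXT5, a transporter of slow-growing cells, lowest at -1.03 (-1.31, -0.75).

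In the vitamin B6 and thiamine list and the sulfate and methionine list the medians were below 0, with few members past 2-fold. For comparison, 34.2% of all genes were below 0 on both arrays and 0.743% were lower by 2-fold. Among 18 vitamin B6 and thiamine genes the median was -0.38 (-0.35, -0.41), and 13 were below 0 on both arrays. THI13 and THI5, near-identical genes of thiamine precursor synthesis whose transcripts a spot may not separate, were lower by 2-fold, at means of -1.29 and -1.05. Of 26 sulfate and methionine genes, 18 were below 0 on both arrays, with a median of -0.22 (-0.32, -0.17). The lowest were MET6, methionine synthase, at -1.08 (-1.26, -0.89), MET28 at -0.96 (-1.24, -0.69) and MET3, ATP sulfurylase, at -0.89 (-1.20, -0.58). Amino acid biosynthesis genes had a median of 0.07 over 61 genes, and none of them passed 2-fold. The copper genes ATX1, CUP1-1 and CUP1-2 were lower at -1.32 (-1.48, -1.17), -1.03 (-0.98, -1.08) and -1.09 (-1.08, -1.10), the CUP1 copies being tandem repeats that the array cannot separate.

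Of the other families, several showed little difference between the strains under tunicamycin, and some held members that differed. The medians of the proteasome, histone, RNA polymerase III, sterol synthesis and Mediator lists lay between -0.03 and 0.10, with no member past 2-fold. Within Mediator, MED11 at -0.69 (-0.63, -0.74) was lower than MED20 itself, and MED8 was highest at 0.25 (0.41, 0.09). Of the 6 a-specific genes measured, 5 were below 0 on both arrays, where 34.2% of all genes were. The pheromone genes MFA1 and MFA2 were lowest at -0.81 (-1.18, -0.43) and -0.78 (-1.16, -0.41). Of 29 cell wall mannoprotein genes, only YGP1 passed 2-fold, at -1.17 (-1.54, -0.79), and TIP1 was highest at 0.92 (1.10, 0.74). The asparaginase copies ASP3-1, ASP3-3 and ASP3-4, another set that cannot be separated, were higher at 1.20, 1.38 and 1.39.

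An alternative fit in limma took each of the 24 arrays as a replicate, with the dye orientation as a replicate block, and it measures only the spread between arrays, which may be technical. Of 5653 genes, it called 262 higher and 137 lower in med20Δ with tunicamycin at an adjusted p below 0.05. Among them were 77 of the 125 RP genes, all higher. Of the 25 ER folding genes it called KAR2 alone, as lower, with an adjusted p of 0.0193, and this single call is not a result for the list.

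The strain difference under tunicamycin was next compared with that in untreated cells, to ask which of it was present without the drug. Those arrays hold the same strains without the drug. Their cultures are described with the same A600 of about 0.2 before drug or vehicle was added. Their growth stage at harvest, the vehicle they received and its duration are not stated. They may therefore differ from the tunicamycin cultures in more than the drug. The untreated arrays were dimmer, with median background-subtracted ORF intensities of 127.5 and 108.5 on replicate 1 and 351 and 262.5 on replicate 2. The background correction used draws ratios of dim spots toward 0, and its part in the differences between conditions was not tested. Of 5608 genes measured on all 4 arrays, the log2 ratio with tunicamycin was higher than that in untreated cells by 2-fold or more for 101 (1.8%) and lower for 28 (0.499%). RP genes were 69 of the 101 and none of the 28. Their median was 0.13 (0.06, 0.22) in untreated cells, the median of the difference was 1.04, and for 107 of 124 RP genes both tunicamycin arrays lay above both untreated arrays, where 22.8% of all genes did so. This difference depended on the normalization to a degree, falling to 0.80 when RP and ribosome biogenesis genes were kept out of the loess fit. In limma with the replicate block, the contrast of the conditions called 30 of 5652 genes as higher with tunicamycin and 12 as lower. RP genes were 16 of the 30 and none of the 12. Without the block, 14 RP genes were called, all higher, of 26 genes higher and 11 lower.

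The largest increases over the untreated cells were those of RPS22B, which had -0.33 (-0.18, -0.47) without the drug and 1.63 (1.42, 1.84) with it, PRS3, with -0.70 (-0.27, -1.14) and 1.07, RPL33A, RPL9A and RPL12B. The limma contrast was past the threshold for RPS22B, PRS3, RPL9A and RPL12B, with adjusted p of 0.021, 0.021, 0.0341 and 0.0312, and not for RPL33A, with 0.136. Downward, ULI1 differed most, by -1.69, followed by HSP26, RTC3, SSA1 and CPP3. ULI1 was slightly above 0 in untreated cells, at 0.31 (0.31, 0.31), and the contrast had an adjusted p of 0.00129. HSP26 was already lower in untreated cells, at -1.11 (-0.98, -1.24), and the difference of -1.63 had an adjusted p of 0.0372. RTC3, SSA1 and CPP3 did not pass, with adjusted p of 0.31, 0.127 and 0.296.

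Single ER stress genes were then compared between these conditions. The ER folding list as a whole had a median of 0.15 (0.07, 0.15) in untreated cells and 0.08 with tunicamycin. KAR2 had 0.43 (0.37, 0.49) in untreated cells and -0.69 with tunicamycin, a difference of -1.11, both tunicamycin arrays lying below both untreated arrays (19.7% of all genes did). Its limma contrast had an adjusted p of 0.0362 with the replicate block and 0.0703 without it, so the call depends on the block. ERO1 had 0.29 (0.31, 0.28) untreated and differed by -0.77, with an adjusted p of 0.114. For INO1, the untreated ratio was -0.07 (-0.05, -0.10) and the difference -0.96, with an adjusted p of 0.0235. HAC1 was low in both, at -0.56 (-0.69, -0.42) untreated, a difference of 0.08. These values are differences between the strain ratios, and whether it was the wild-type or the med20Δ cells that changed with the drug cannot be told apart from them.

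Across the 7 conditions in which the 2 strains were compared, the RP genes were highest with tunicamycin and with rapamycin. Rapamycin, a TOR kinase inhibitor, was given at 0.2 µg/ml for 1 h and the RP median was 1.43 (1.21, 1.67). With tunicamycin it was 1.22 (1.21, 1.12). The median of the difference was -0.19, with -0.40 on replicate 2 alone and -0.03 on replicate 1 alone. Both tunicamycin arrays lay below both rapamycin arrays for 50 of 125 RP genes and above them for 12, against 21.6% and 24.3% of all genes. After 1 h of chlorpromazine, a membrane-active drug that also acts on the secretory pathway, the median was 0.58 (0.71, 0.50), lower than with tunicamycin on each array, and 80 of 125 RP genes had both tunicamycin arrays above both chlorpromazine arrays (19.1% of all genes did). Cells harvested past the diauxic shift, after 48 h of growth in all, had 0.48 (0.73, 0.27). In hydrogen peroxide (0.32 mM, 30 min) and after a shift from 29°C to 39°C for 20 min, the medians were -0.28 (0.20, -0.88) and -0.07 (0.12, -0.29), and their arrays disagreed on the sign. RP genes higher with tunicamycin by 2-fold numbered 90 of 124 against hydrogen peroxide, where 4.38% of all genes were higher and 4.17% lower, 76 of 125 against heat (3.34% of all genes) and 26 of 125 against cells past the diauxic shift (1.71%), and none was lower by 2-fold in the 3 comparisons. Across the 125 RP genes, the tunicamycin ratios correlated with r = 0.534 with those in rapamycin and 0.579 with those in chlorpromazine, and with r = 0.219 over 124 genes with those in untreated cells. The points share spots and probes, and the correlations are descriptive.

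**Figure D4:**
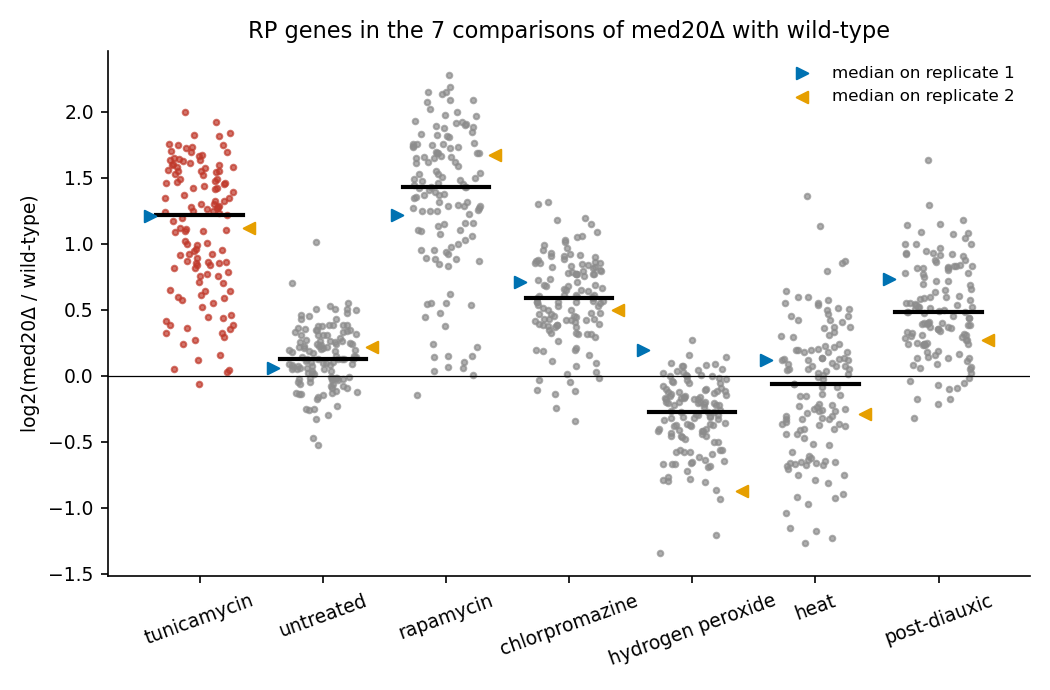
Log2 ratio of med20Δ to wild-type for each RP gene (points, pair mean) in 7 conditions, with the median over genes (black bar) and the median on each array (triangles). Tunicamycin (red) and rapamycin have medians of 1.22 and 1.43, the untreated cells 0.13, and the arrays in hydrogen peroxide and heat lie on opposite sides of 0.

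Against rapamycin, 85 of 5631 genes had a higher ratio with tunicamycin by 2-fold or more (1.51%) and 22 a lower one (0.391%). No RP gene was among the 85, and 9 were among the 22. The rapamycin arrays were also dimmer than the tunicamycin arrays, with medians of 127.5 and 82.5 on replicate 1 and 251 and 203.5 on replicate 2. The largest differences were in genes that were low in med20Δ with rapamycin and near 0 with tunicamycin. SNZ1, of vitamin B6 synthesis, had -2.76 with rapamycin and 0.09 (0.06, 0.13) with tunicamycin. CWP1, a cell wall mannoprotein, AGA1, an agglutinin subunit, and HIS4, of histidine synthesis, had -2.15 to -2.48 with rapamycin and -0.22 to 0.10 with tunicamycin. The limma contrasts of these 4 genes were past the threshold, the largest adjusted p being 0.00448 for CWP1. The amino acid biosynthesis list had a median of -0.47 with rapamycin and 0.07 with tunicamycin. Downward, RPL29, ULI1, RPL37A, CDC36 and RPL32 differed most, by -1.31 to -1.76. ULI1 and RPL32 passed the limma threshold, with adjusted p of 0.00023 and 0.0148.

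Against chlorpromazine, 55 of 5612 genes were higher with tunicamycin (0.98%) and 11 were lower (0.196%). YOL014W had -2.01 (-1.91, -2.11) with chlorpromazine and 0.09 (-0.14, 0.32) with tunicamycin. MPD1, which encodes an ER protein disulfide isomerase, had -1.76 (-1.70, -1.82) and -0.21 (-0.31, -0.12). The others were RPS27B, HSP30 and TOH1, with differences of up to 1.52. Genes with the opposite difference were MTD1, of one-carbon metabolism, at 1.18 (1.46, 0.90) with chlorpromazine and -0.42 (-0.38, -0.45) with tunicamycin, then ULI1, HSP12, ADE1 and ERG3. Of the ER stress genes, KAR2, ERO1 and HAC1 had lower ratios with chlorpromazine, at -1.30 (-1.41, -1.19), -1.08 (-0.71, -1.44) and -1.18, than with tunicamycin. Their limma contrasts did not pass, with adjusted p of 0.318, 0.219 and 0.2.

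ULI1 was among the 5 genes whose tunicamycin ratio lay farthest below that in untreated cells, with rapamycin, with chlorpromazine and past the diauxic shift. It was lower by 2-fold with tunicamycin, and it was above 0 on both arrays of each of the other 6 conditions, where its means ran from 0.18 to 0.59. INO1 was likewise lowest with tunicamycin, its other means running from -0.70 to -0.06. KAR2 and ERO1, by contrast, ranged widely. KAR2 had -1.60 past the diauxic shift and 1.45 after heat, and ERO1 had -1.08 with chlorpromazine and 1.46 in hydrogen peroxide, with the tunicamycin values inside those ranges. HSP26 and HSP12 were lower in med20Δ by 2-fold with tunicamycin, rapamycin, chlorpromazine, without treatment and past the diauxic shift, but not in hydrogen peroxide, where HSP26 was higher at 1.24 (1.40, 1.08) and HSP12 had 0.05. After heat, HSP26 had 0.12 (-0.31, 0.54) and HSP12 had -1.01 (-1.75, -0.27). The list of general stress genes was written after the values had been seen, so its medians do not compare the conditions evenly. They were -0.88 with tunicamycin, -0.37 in untreated cells, -0.81 with rapamycin and -0.91 with chlorpromazine. In hydrogen peroxide the median was 0.88, after heat -0.62 and past the diauxic shift -1.25, the lowest of the 7. For mitochondrial RP genes the median was above 0 on both arrays in every condition, between 0.26 and 0.63, and the tunicamycin value lay within that range.

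**Figure D5:**
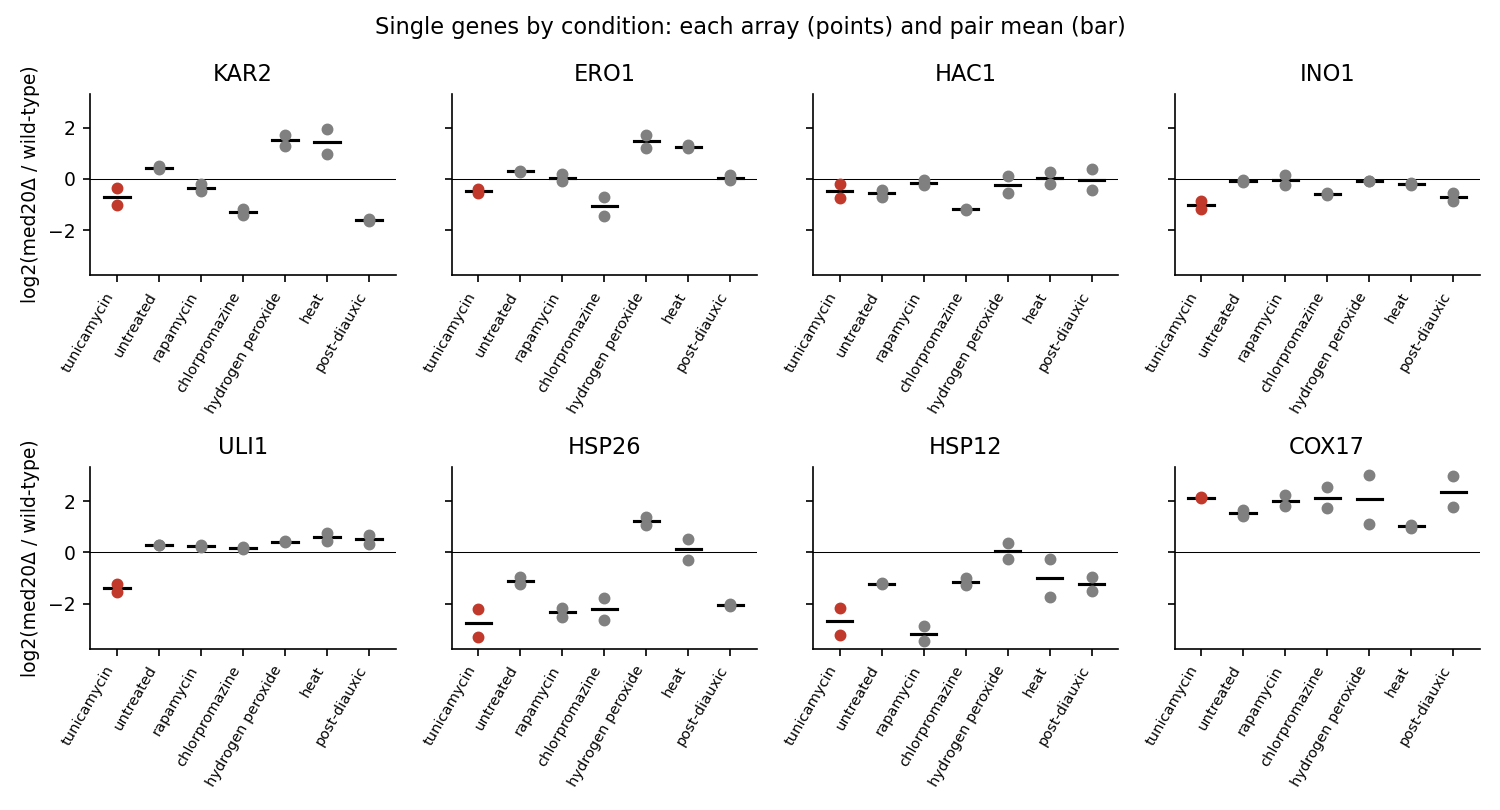
Log2 ratio of med20Δ to wild-type for 8 single genes in 7 conditions, with each array as a point and the pair mean as a bar, tunicamycin in red. ULI1 is below 0 with tunicamycin alone (-1.38), COX17 is above 1 on nearly every array, and KAR2 and ERO1 lie on either side of 0 depending on the condition.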

How the data were processed

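Labels gave the strain, treatment, dye and replicate number of every sample. For the 6912 spots of an array the authors deposited foreground and background intensity of both dyes, a flag of unstated meaning, and log10 ratios of Cy5 over Cy3, raw and normalized as in a work they cite. Their error and p-value columns were left aside. The deposited series table repeats the normalized ratios exactly (largest difference 0), and its columns for the tunicamycin arrays have medians of 0.00244 and -0.00651, on the log10 scale. Ratio direction followed the dyes in the labels.

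From the intensities, background was corrected by normexp with an offset of 50, which draws the ratios of dim spots toward 0, and loess was applied to each array (limma 3.58.1, R 4.3.3). Control spots (576) and ORF spots whose flag was not 1 (622 and 585) were excluded. A channel is above background over the 95th percentile of the 29 unnamed spots. Printed intensities are background-subtracted and not normalized, and the number of arrays limits precision. Later steps used pandas 2.3.3, numpy 2.4.6, matplotlib 3.10.9 and Python 3.11.15.

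RefSeq's R64 gene table named 5801 ORFs, and 506 had no match. Spotted double-stranded products do not separate near-identical copies, overlapping genes or strands. Members and lists were chosen with earlier results of these data known. Named genes are MED20, the 12 largest ratios in each direction past 2-fold on both arrays, up to 3 highest and lowest members of a list, the 5 largest differences between conditions each way with no overlap of arrays, strain markers, and KAR2, PDI1, ERO1, HAC1, IRE1, LHS1, DER1, INO1, ALG7, RPL3 and RPL28. The other genes were named after their values were seen. Some genes that this rule selects are not reported here. Alternatives varied the background, normalization, dim-gene filter, arrays and threshold, or used limma with Benjamini-Hochberg adjustment over all genes, without and with a replicate block. Replicate number equals dye orientation, so the block is a dye term and pairs no cultures. Scripts were tested on simulated data.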

Additional observations from a re-analysis of the deposited data

Results flagged for a closer look

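Each comparison has 2 arrays, too few to look for single outlying samples. Results were listed here when the strain ratio with tunicamycin differed from that in another condition, either by the limma contrast with untreated cells (arrays as replicates, replicate block) or because both arrays of one condition lay on the opposite side of 0 from both arrays of the other and the mean in the other condition was past 2-fold. For lists, both medians had to be at least 0.25 from 0.

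In the limma contrast, the log2 ratio with tunicamycin was above that in untreated cells by 1.58 for RPL20A, 1.58 for RPS12, 1.72 for RPL12B, 1.32 for RPS8A, 1.40 for RPL20B, 1.18 for MAM33, 1.27 for RPL28, 1.96 for RPS22B, 1.77 for PRS3 and 1.75 for RPL9A. It was below by -1.63 for HSP26, -1.69 for ULI1, -1.31 for ROQ1, -0.96 for INO1, -1.08 for HXT5, -1.08 for THI13 and -1.49 for PUT1. For RPL20B the adjusted p in limma was 0.0341 with the replicate block and 0.0991 without it, so this call depends on the block. Adjusted p-values in limma with the block ran from 0.00129 for ULI1 to 0.0474 for THI13.

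Genes lower with tunicamycin but higher in hydrogen peroxide were HSP26 (1.24 in hydrogen peroxide), RTC3 (1.44), ROQ1 (1.85), TSL1 (1.81), CUP1-2 (1.53), CUP1-1 (1.54), DDR2 (2.41) and DDR48 (1.70). ROQ1 was also higher after heat, at 1.11. Genes higher with tunicamycin but lower in hydrogen peroxide were SNU13 (-1.64), RPL9B (-1.34), RPS7B (-1.21) and TMA19 (-1.30), and after heat RPS27B (-1.18), RPS6B (-1.27) and RPS1A (-1.04). These opposite signs were not tested.

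The median of the heat shock list, -0.30 with tunicamycin, was 0.73 in hydrogen peroxide and 0.84 after heat. That of the aryl alcohol dehydrogenase list, -0.32 over 6 genes, was 0.70 in hydrogen peroxide, and that of the translation factors, 0.33, was -0.27 there. These differences were not tested either.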

How the results depend on the processing

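Of the 64 named genes past 2-fold that were run under the alternatives, 0 changed sign. The number of genes higher by 2-fold, 105, was 287 at 1.5-fold and 231 and 262 in limma without and with the replicate block, and 110 to 135 on single arrays. The number lower, 42, was 67 with local background subtracted, 73 with the authors' normalized ratios, 17 when 2-fold was required on both arrays, 169 at 1.5-fold, 121 and 137 in limma without and with the replicate block, and 21 to 87 on single arrays. The RP median, 1.22, was 1.05 with median centering, 1.08 with the authors' ratios and 1.12 to 1.21 on single arrays. The ER folding median, 0.08, was 0.016 with median centering, 0.034 with the authors' ratios, 0.064 without the dimmest 25% of genes and 0.057 to 0.079 on single arrays. Genes that differed by 2-fold between tunicamycin and untreated cells numbered 129, and 223 with local background subtracted, 37 and 42 in limma without and with the replicate block, and 168 to 187 on single arrays. Against rapamycin the number was 107, and 241 with local background subtracted, 222 with the authors' ratios and 169 to 180 on single arrays. Against chlorpromazine it was 66, and 124 with local background subtracted and 103 to 186 on single arrays. The cause of these shifts was not tested. The alternatives for the difference in RP medians were chosen after seeing the data. That difference from untreated cells, 1.04, ran from 0.80 with RP and ribosome biogenesis genes kept out of the loess fit to 1.14 with median centering. With 2 arrays of 1 comparison, differences near the SD of 0.21 per array were not detectable, and dim spots bound a ratio poorly.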

Other observations

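The ORF whose arrays differed most was YOL106W, at -0.33 on replicate 1 and 2.30 on replicate 2. CCW12, which encodes an abundant cell wall mannoprotein, had -1.32 and 0.46, and the enolase genes ENO1 and ENO2 had -1.66 and 0.00, and -1.64 and -0.07. These genes were singled out after their values were seen.

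A pair of members of the general stress list had ratios near 0 in every condition, TPS1 between -0.10 and 0.09 and HXK1 between -0.01 and 0.10. With tunicamycin neither spot was above background in any channel, at intensities of -13 to -4 for TPS1 and -1 to 4.5 for HXK1. Their ratios there do not measure expression of these genes. YLR202C and YOR309C, which were higher by 2-fold at 1.07 (1.12, 1.03) and 1.02 (1.26, 0.78), are not in the gene table used here. YNL184C, at 1.05 (1.09, 1.01), overlaps MRPL19.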
